A study of Homo sapiens with 14 samples.

Results

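The comparison described here is of SKOV3 cells after 72 h with GSK-J4 against SKOV3 cells after 72 h with GSK-J5, each at 2.5 µM. SKOV3 is an established human ovarian adenocarcinoma line known for amplified ERBB2 and for loss of CDKN2A. The members were the 6 RNA sequencing libraries that the count tables name as SKOV3, 3 per compound, of 22 libraries in the series. The other 16 libraries came from OVCAR-3 and CAOV3, also ovarian cancer lines, with the same compounds and dose. There was no untreated library, so every value is GSK-J4 relative to GSK-J5. All cells were plated in multi-well dishes, SKOV3 in McCoys medium, and whether each replicate was its own culture is not stated in the labels, so a p-value speaks only of the spread between these libraries, which may be technical. Replicates 1 and 2 form a first library set, which the labels describe as treated in stripped medium with RNA from an RNeasy mini kit. Replicate 3 forms a second set, with McCoys 5A medium, an RNeasy Plus kit and poly(A) enrichment, and no mention of stripped medium. Medium, kit and enrichment changed together and cannot be told apart.

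GSK-J4 is a cell-permeable ester that is hydrolysed in cells to an inhibitor of the KDM6 demethylases, KDM6A, also called UTX, and KDM6B, also called JMJD3. GSK-J5 is an isomer of it, added to the control cells as the inactive compound. The KDM6 enzymes remove methyl groups from lysine 27 of histone H3, a mark that the Polycomb repressive complex PRC2 writes through EZH2 or EZH1 and that accompanies silenced genes. Blocking removal of the mark is known to hold back the induction of some genes rather than to shut down all of them. Transcripts alone were measured here, not the mark.

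The 6 libraries held 24037007 to 37990707 counts assigned to genes, and 3 counts, used as the detection floor, corresponded to 0.079 to 0.125 CPM (counts scaled to library size). The floor covers counting error only. The line's identity matched its label in both sets. CDKN2A had 0 counts in all 6 libraries. ERBB2, the amplified receptor gene, stood at 2450 to 14640 CPM, against at most 215 CPM in the 12 libraries of the other lines of the same time. PAX8, a Mullerian lineage factor, stood at 152 to 208 CPM, and the keratins KRT8 and KRT18 at 518 to 743 and 80.8 to 104 CPM. The fibroblast list summed to 404 to 486 CPM with GSK-J5 and 428 to 550 CPM with GSK-J4, most of it COL1A1. The leukocyte list summed to 0.504 to 1.13 CPM with GSK-J5 and 0.913 to 1.18 CPM with GSK-J4, with CD3E, MS4A1 and ITGAM at 0 counts. Endothelial markers summed to 1.09 to 7.63 and 0.862 to 7.88 CPM, with CDH5 and EMCN at 0 counts.

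Replicate 3 stood apart from replicates 1 and 2 of the same compound. The first principal component carried 61.8% of the variance and separated the sets, and the second 12.1%. Among 12449 genes with a mean of at least 2 CPM in the GSK-J5 libraries, 246 differed over 4-fold between the sets and 1 between replicates 1 and 2. The corresponding between-set counts were 70 of 12854 genes in OVCAR-3 and 4 of 12835 in CAOV3. ERBB2 itself was at 11710 and 14640 CPM in the first set and 2454 CPM in the second with GSK-J5. The set was therefore a term in the test, and results are given with and without replicate 3.

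In the fit of 6 libraries, most of the SKOV3 transcriptome with GSK-J4 stayed within narrow bounds of GSK-J5, and 7 genes passed the test. HMOX1, SCD and SPP1 were among the higher genes, and ALDH3A1, ESPN and IDO1 were the lower ones. Fold changes of the 7 ran from 1.32 to 1.95. The test was edgeR's quasi-likelihood test with Benjamini-Hochberg adjustment over 16089 genes and a threshold of 0.05 on the adjusted p. Higher genes were 4, or 0.0249% of those tested, and lower genes 3, or 0.0186%. At an unadjusted p under 0.05 there were 573 genes, or 3.56%, of which 271 were higher and 302 lower. In all 7 called genes the 3 same-numbered pairs moved in the same direction. Over all 16089 genes, the pairs all rose for 2123 and all fell for 2098. The calls rest on these same libraries, so agreement of their pairs is no further support. In bulk RNA, fewer cells that express a gene and less RNA per cell cannot be told apart.

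**Figure D1:**
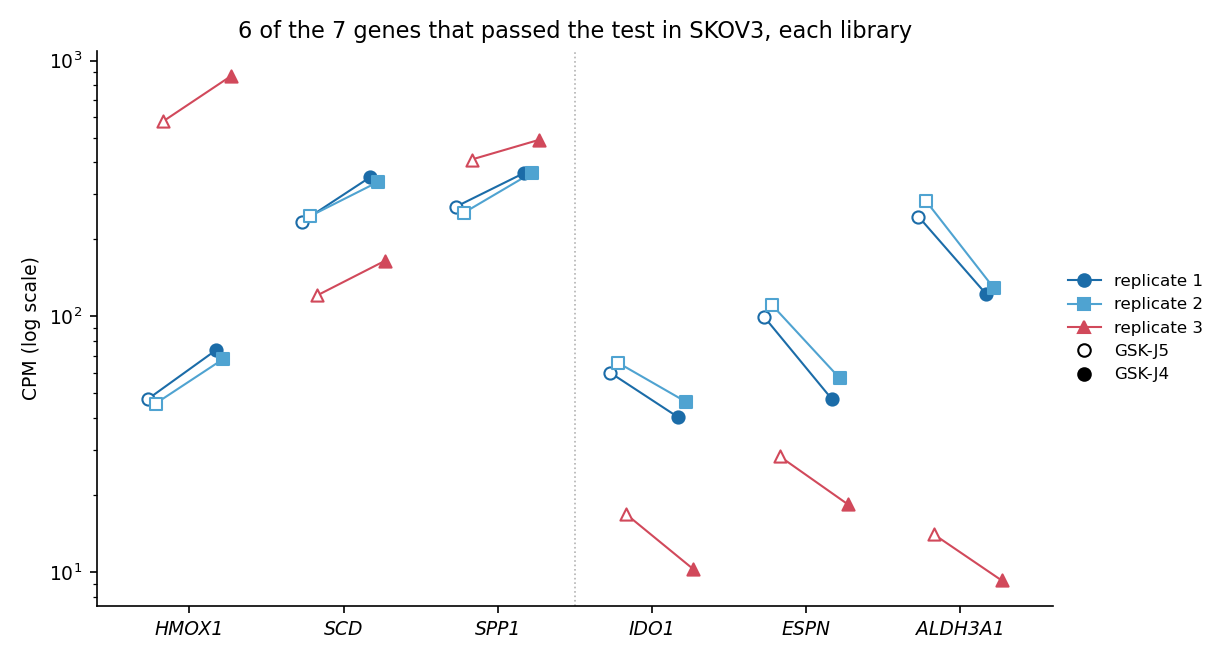
CPM (log scale) of 6 of the 7 genes that passed the test, in each of the 6 SKOV3 libraries. Open symbols are GSK-J5, filled symbols GSK-J4, and a line joins libraries of the same replicate number. Every line slopes up for the 3 genes left of the dotted line and down for the 3 right of it. Replicate 3 lies well away from the other replicates for HMOX1, ALDH3A1, ESPN and IDO1, and less far for SCD and SPP1.

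HMOX1, heme oxygenase, which breaks heme down to biliverdin, iron and carbon monoxide, had the largest rise of the 7 genes. It lies on GRCh38 at chr22:35380361-35394214. Its level was 47.5, 45.6 and 580 CPM in replicates 1, 2 and 3 with GSK-J5, and 73.7, 68.2 and 871 CPM with GSK-J4. The gene was higher with GSK-J4 within each set, although replicate 3 lay above the first set in both compounds, so the groups overlapped across sets. The log2 fold change was 0.60 (SE 0.06, 95% interval 0.47 to 0.73, adjusted p = 0.000114), and the pair values were 0.63, 0.57 and 0.59.

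SCD, stearoyl-CoA desaturase, introduces the double bond of monounsaturated fatty acids and lies at chr10:100347124-100364834. It stood at 234, 246 and 121 CPM with GSK-J5 and 350, 335 and 165 CPM with GSK-J4. Replicates 1 and 2 with GSK-J4 were the highest libraries, and replicate 3 was the lowest of each compound. The log2 fold change was 0.49 (SE 0.06, 95% interval 0.36 to 0.62, adjusted p = 0.000825).

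SCD and SPP1 were the called genes with a promoter window in the RefSeq table used here, and that of SCD is shown. The SPP1 window of 250 bases held 0 matches to each of the 3 motifs described below. The 250 bases before the RefSeq start (GRCh38.p14, chr10:100346983-100347232, plus strand) are printed with CCAAT in capitals. The GENCODE gene start given above lies upstream of the RefSeq start, so the end of this window is inside the GENCODE gene, and positions are counted from the RefSeq start.
SCD promoter: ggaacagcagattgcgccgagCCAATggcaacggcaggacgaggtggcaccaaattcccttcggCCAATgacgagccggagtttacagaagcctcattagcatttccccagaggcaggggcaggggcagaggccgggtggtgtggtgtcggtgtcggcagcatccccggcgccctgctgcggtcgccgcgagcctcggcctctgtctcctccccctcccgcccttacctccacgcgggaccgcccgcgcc
The letters CCAAT, bound by the factor NF-Y among others, were searched on both strands and occurred 2 times, with first bases at -229 and -186 from the start. Of 35116 windows of the same length, 32% held CCAAT and 9.53% held it more than 1 time. The sterol element letters TCACNCCAC were in 0.883% of windows and the E-box letters CACGTG in 6.34%, each searched on both strands, and neither was in this window. A match of letters is a description and no evidence that a factor binds.

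SPP1 encodes osteopontin, a secreted phosphoprotein that binds integrins and CD44, at chr4:87975650-87983426. It was at 269, 254 and 411 CPM with GSK-J5 and 364, 364 and 491 CPM with GSK-J4, a log2 fold change of 0.40 (SE 0.06, 95% interval 0.27 to 0.54, adjusted p = 0.016). The first-set libraries did not overlap between compounds, and replicate 3 was higher with GSK-J4 as well.

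ALDH3A1, an aldehyde dehydrogenase of the cytosol and a known target of the aryl hydrocarbon receptor, had the largest fall of the 7. It lies at chr17:19737984-19748943. It stood at 246, 282 and 14.1 CPM with GSK-J5 and 122, 129 and 9.29 CPM with GSK-J4. Both first-set replicates were lower with GSK-J4, and replicate 3, far lower in both compounds, was lower as well. The log2 fold change was -0.96 (SE 0.09, 95% interval -1.15 to -0.78, adjusted p = 3.69e-05).

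ESPN encodes espin, which bundles actin filaments in microvilli and stereocilia, at chr1:6424776-6461367. Its level was 99.4, 111 and 28.4 CPM with GSK-J5 and 47.4, 57.3 and 18.5 CPM with GSK-J4, a log2 fold change of -0.89 (SE 0.10, 95% interval -1.11 to -0.68, adjusted p = 0.000296). IDO1, the enzyme that opens the ring of tryptophan on the way to kynurenine, lies at chr8:39902275-39928444. It was at 60.3, 65.9 and 16.9 CPM with GSK-J5 and 40.4, 46.4 and 10.3 CPM with GSK-J4. Both genes were lower in replicate 3 than in the first set whatever the compound. The log2 fold change of IDO1 was -0.59 (SE 0.10, 95% interval -0.80 to -0.38, adjusted p = 0.0381).

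ALDH3A1, HMOX1, ESPN and SCD kept an adjusted p under 0.05 when any 1 library, or any 1 replicate of both compounds, was left out. With 1 library left out, the highest adjusted p (edgeR) was 0.16 for SPP1 and 0.40 for IDO1. Without replicate 3, IDO1 had an adjusted p of 0.14 at a log2 fold change of -0.54, and 5 of the 7 genes still passed.

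The 95% intervals describe the size of change per gene in the fit of 6 libraries, which assumes 1 effect for both sets. They do not bound a change that differs between the sets, as for CYP1B1 and MT2A below. Among 10012 well-expressed genes (mean log2 CPM 3 or more), 9991 had a fold change whose 95% interval stayed within 2-fold in either direction, or 99.8%, and 9635 within 1.5-fold, or 96.2%. Over all 16089 genes, 12332 intervals, or 76.6%, lay within 2-fold, and 10221, or 63.5%, within 1.5-fold. The median log2 fold change was 0.00 and the middle 50% of genes lay between -0.09 and 0.10. Of the genes tested, 8153 were above 0.

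**Figure D2:**
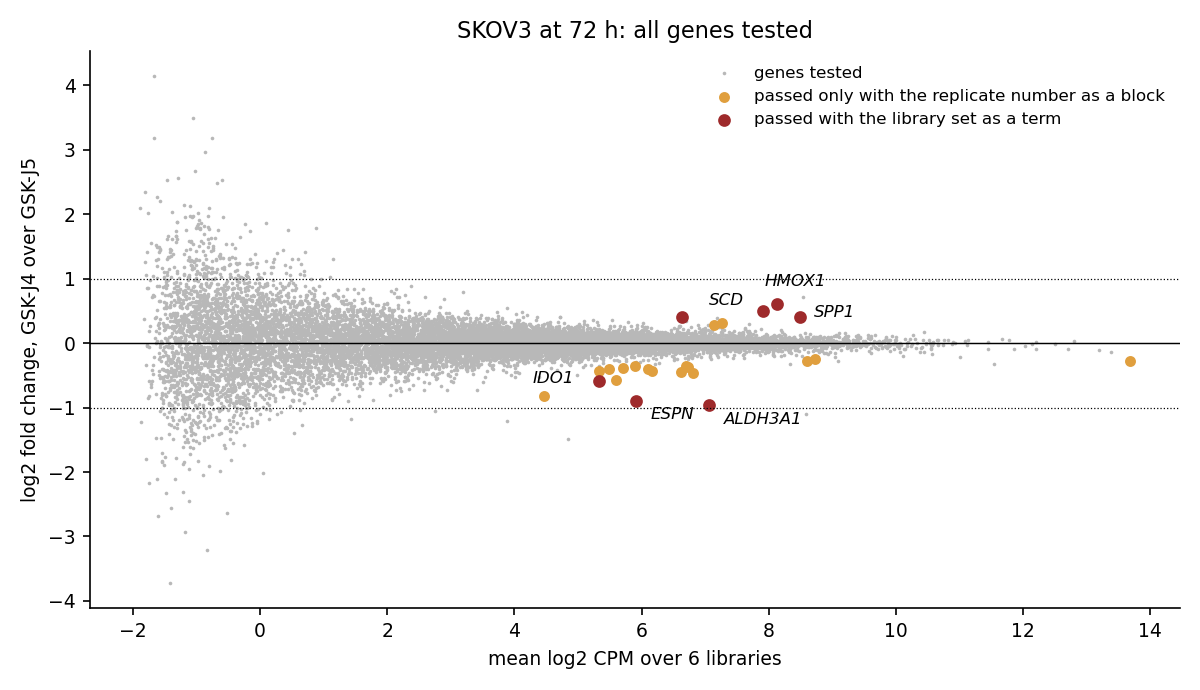
Log2 fold change of GSK-J4 over GSK-J5 against mean log2 CPM over the 6 SKOV3 libraries, 1 point per gene tested (16089). Dark red points are the 7 genes that passed with the library set as a term, orange points the 17 that passed only with the replicate number as a block, and dotted lines mark a 2-fold change; all coloured points lie inside them.

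The deviations of same-numbered libraries from their group means correlated at 0.443, 0.446 and 0.779 over genes. Differently numbered libraries of the first set correlated almost as much, at 0.382 and 0.345, so these values mostly show the sets and say little about the numbers 1 and 2. The replicate number was also fitted as a block. With the block, 6 genes (0.0373%) were higher and 18 (0.112%) lower, and these included all 7 above. Fold changes ran from 1.19 to 1.97. The further genes named with the block, and those named for replicates 1 and 2 alone, were chosen after their values were seen. The 2 further higher genes were RND3, which opposes actin stress fibres, and F3, tissue factor, which starts coagulation. F3 shows what the block does: it stood at 171, 113 and 95.2 CPM with GSK-J5 and 205, 145 and 112 CPM with GSK-J4. The groups overlapped, yet GSK-J4 was higher in each pair, and the adjusted p was 0.0322 with the block and 0.9995 without. RND3 was at 78.6, 72.5 and 260 CPM with GSK-J5 and 102, 81.3 and 333 CPM with GSK-J4 (adjusted p = 0.0246 with the block).

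A further 15 genes were lower with the block. LAMA3 and LAMB3 encode chains of laminin-332, the basement membrane protein under stratified epithelia. LAMA3 was at 115, 105 and 31.8 CPM with GSK-J5 and 81.5, 69.5 and 27.9 CPM with GSK-J4 (adjusted p = 0.00835). LAMB3 was at 541, 526 and 327 CPM and 438, 426 and 294 CPM (adjusted p = 0.0304), so both were lower in every pair. FN1, fibronectin, fell by 0.27 on the log2 scale from 11510, 12290 and 18940 CPM to 9348, 9086 and 17970 CPM (adjusted p = 0.0484). RIPK4, a kinase of keratinocyte differentiation, was at 135, 144 and 63.4 CPM with GSK-J5 and 87.4, 99.6 and 57.0 CPM with GSK-J4 (adjusted p = 0.00835). SMAD3, the signal transducer of TGF-beta receptors, was at 149, 120 and 89.99 CPM and 112, 92.3 and 71.7 CPM (adjusted p = 0.00369). SUSD2, a surface protein with a sushi domain, was at 34.6, 47.9 and 2.74 CPM and 18.2, 26.4 and 1.88 CPM (adjusted p = 0.000706). IL1R1, the interleukin-1 receptor, was at 173, 167 and 57.3 CPM and 114, 109 and 52.9 CPM (adjusted p = 0.0322). BCL3, a nuclear partner of NF-kB, was at 88.0, 102 and 44.8 CPM and 62.5, 79.1 and 35.1 CPM (adjusted p = 0.00835). KRT14, a basal keratin, was at 79.6, 94.0 and 0.042 CPM and 57.8, 58.7 and 0.078 CPM, so replicate 3 was under the floor and its value rests on the first set. The others were IGFBP6, GDA, HES2, NTNG1, SOD3 and RBPMS. All 3 pairs had the same direction for 23 of the 24 genes called with the block, KRT14 being the exception. Over all 16089 genes, the pairs all rose for 2123 and all fell for 2098. The block test itself favours genes whose pairs agree, so this count is no further support.

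Replicates 1 and 2 alone gave 4 higher genes (0.0242%) and 11 lower (0.0666%) of 16515 tested, 5 of them among the 7. CYP1B1, a cytochrome P450 that hydroxylates oestradiol and polycyclic hydrocarbons, fell by 1.48 on the log2 scale (adjusted p = 2.42e-08). Over all 6 libraries its value was -1.10 (adjusted p = 0.9995, and 0.87 with the block). MEGF6, a protein with epidermal growth factor repeats, was at 32.5 and 35.02 CPM with GSK-J5 and 6.69 and 10.1 CPM with GSK-J4, and at 52.6 and 36.3 CPM in replicate 3. Its log2 fold change was -2.001 in replicates 1 and 2 (adjusted p = 3.92e-05) and -1.48 over all 6 libraries (adjusted p = 0.9995). PORCN, the acyltransferase that lipidates Wnt ligands, was at 60.02 and 51.6 CPM with GSK-J5 and 31.0 and 32.8 CPM with GSK-J4 (adjusted p = 0.013 in replicates 1 and 2), and at 63.6 and 57.3 CPM in replicate 3. SLC7A5, the large neutral amino acid transporter, was at 2819 and 2445 CPM and 1877 and 1776 CPM (adjusted p = 0.013), and at 4442 and 4689 CPM in replicate 3. With the replicate block as well, an alternative added after the data were seen, these 4 libraries gave 31 higher genes (0.188%) and 50 lower (0.303%), including all 7; that fit leaves 1 residual degree of freedom before moderation.

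The targets of the compound and their counterparts did not pass the test at the transcript level. KDM6A was at 41.9, 42.6 and 33.4 CPM with GSK-J5 and 41.3, 41.6 and 34.8 CPM with GSK-J4, with a log2 fold change of 0.00 (95% interval -0.19 to 0.19). KDM6B was at 33.0, 34.8 and 46.9 CPM and 27.6, 32.8 and 59.2 CPM, with a log2 fold change of 0.00 (95% interval -0.24 to 0.24). GSK-J4 was the lower of the pair for KDM6B in replicates 1 and 2 and the higher in replicate 3. EZH2, the main methyltransferase of PRC2, had a log2 fold change of -0.02 (95% interval -0.29 to 0.25). Of the 13 genes of the KDM6 and PRC2 list, 0 were called, 0 with the block, and all 13 intervals lay within 1.5-fold. Of 18 other Jumonji demethylases, which share the catalytic fold, 0 were called. Since an inhibitor acts on the protein, these transcripts do not check that the enzymes were blocked.

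Gene lists of pathways and cell states were described by their counts and by the median log2 fold change of their tested members. The medians are to be read beside 0.00 over all genes, and counts above 0 beside 8153 of all 16089 genes. They share genes, and members of a list are not replicates.

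**Figure D3:**
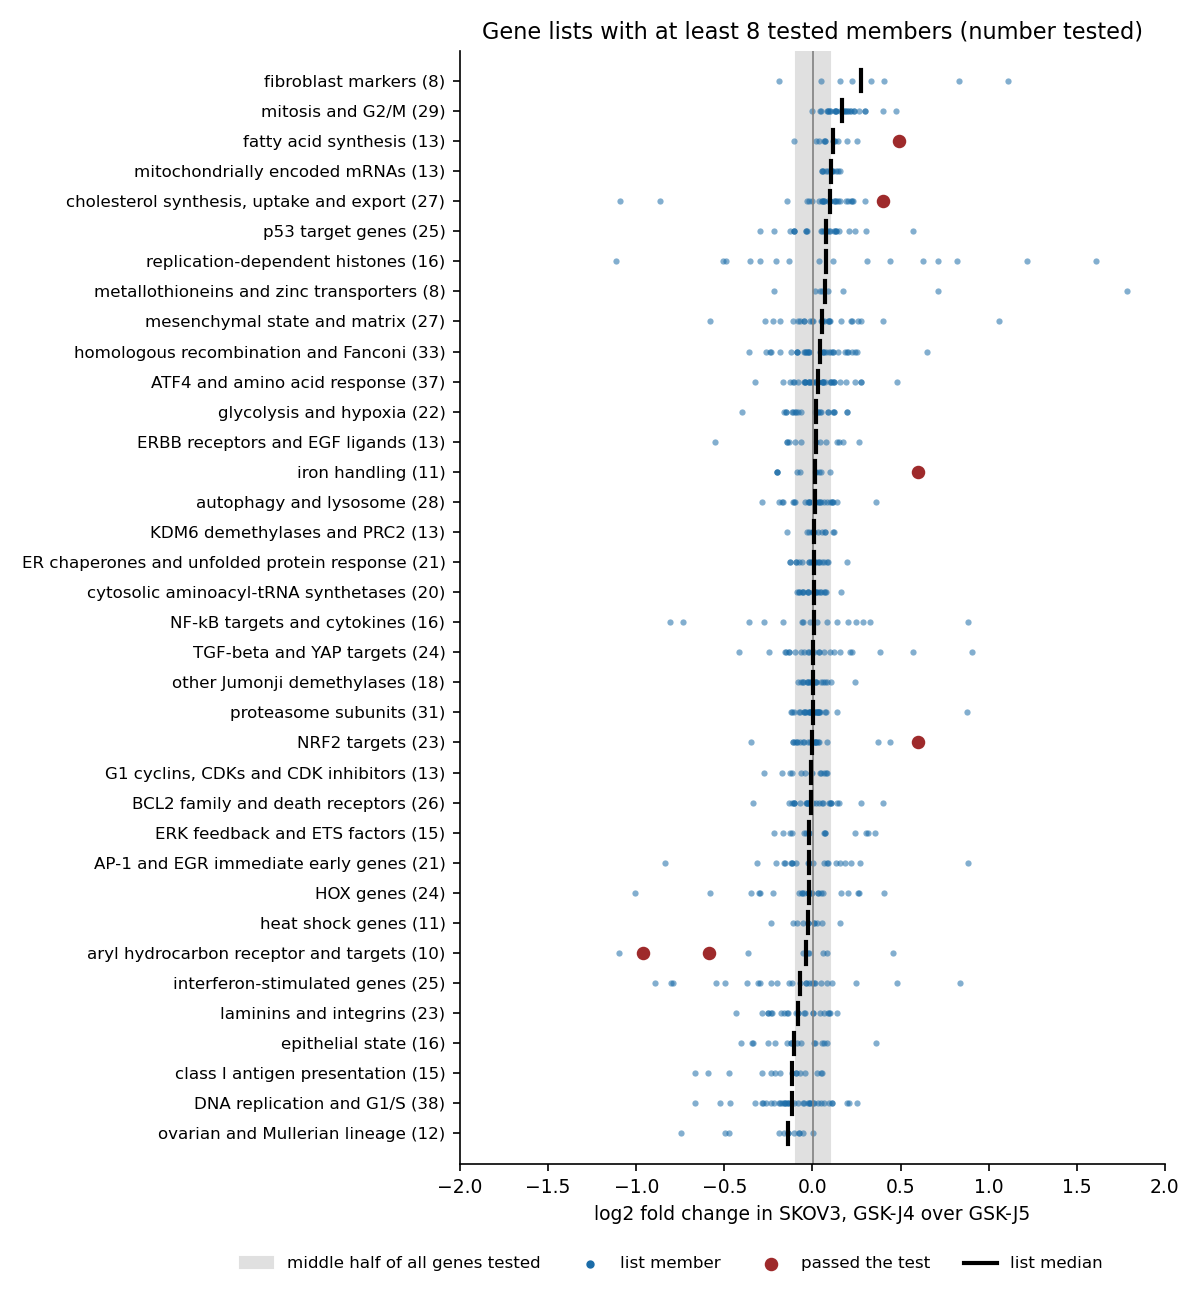
Log2 fold change in SKOV3 of each member (blue points) of the 36 gene lists with at least 8 tested members, with the list median as a black bar; dark red points are members that passed the test and the grey band is the middle 50% of all 16089 genes. Fibroblast markers (0.28) and mitosis (0.17) have the highest medians and Mullerian lineage genes (-0.14) the lowest.

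Lipid gene lists had medians above that of all genes. Of 27 tested genes of cholesterol synthesis, uptake and export, 1 was called, as higher, where 0.0249% of all genes were higher. Above 0 were 21 of the 27, with a list median of 0.0996. That median lay inside the middle 50% of all genes, which reached 0.1015. The lowest member was at -1.095, a fall larger in size than any rise in the list. The genes without a call named here were chosen after their values were seen. DHCR7, the last enzyme of cholesterol synthesis, was at 29.6, 28.8 and 33.0 CPM with GSK-J5 and 35.6, 37.5 and 39.4 CPM with GSK-J4, so the groups did not overlap, at a log2 fold change of 0.30 (adjusted p = 0.9995). SREBF2, the transcription factor that drives these genes, was at 180, 181 and 183 CPM and 200, 225 and 212 CPM (log2 fold change 0.23, adjusted p = 0.72). FDFT1, squalene synthase, had a log2 fold change of 0.22 (adjusted p = 0.80). Of 13 fatty acid synthesis genes, 1 was called, SCD, beside the same 0.0249% of all genes. Above 0 were 12 of the 13, with a list median of 0.11. SREBF1, the paralogous factor of lipogenic genes, was at 107, 114 and 42.0 CPM with GSK-J5 and 133, 126 and 52.2 CPM with GSK-J4 (log2 fold change 0.25, adjusted p = 0.72).

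HMOX1 was in both the iron handling and the NRF2 lists. Of 11 iron handling genes and 23 NRF2 targets it was the 1 called member, where 0.0249% of all genes were higher. The list medians were 0.02 and 0.00. NQO1, a defining NRF2 target, was at 748, 720 and 1218 CPM with GSK-J5 and 684, 687 and 1243 CPM with GSK-J4 (log2 fold change -0.06, 95% interval -0.18 to 0.06). FTH1, the ferritin heavy chain, had a log2 fold change of -0.09 (95% interval -0.37 to 0.20). TFRC, the transferrin receptor, was at 264, 285 and 382 CPM and 223, 212 and 398 CPM, lower in replicates 1 and 2 and higher in replicate 3 (log2 fold change -0.20, adjusted p = 0.9995).

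Of 10 tested genes of the aryl hydrocarbon receptor list, 2 were lower, ALDH3A1 and IDO1, and 3 were above 0, where 0.0186% of all genes were lower. The list median was -0.04, inside the middle 50% of all genes, with pair medians of -0.01, -0.19 and -0.10. Its members ran from -1.10 to 0.46, and NQO1, described above, was a member without a call. The receptor AHR itself was at 46.4, 45.8 and 27.7 CPM with GSK-J5 and 51.8, 46.1 and 28.96 CPM with GSK-J4 (log2 fold change 0.08, 95% interval -0.12 to 0.28). In replicates 1 and 2 CYP1B1 was lower as well, beside ALDH3A1.

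Proliferation was described by 2 lists. Of 29 tested mitosis and G2/M genes, 0 were called, 28 were above 0 and the median was 0.17. The medians of the 3 pairs were 0.25, 0.36 and -0.13, so replicate 3 went the other way. TOP2A, the topoisomerase of mitotic chromosomes, was at 237, 219 and 183 CPM with GSK-J5 and 305, 292 and 169 CPM with GSK-J4. ASPM, a spindle pole protein, was at 25.02, 25.2 and 15.99 CPM and 37.1, 36.8 and 16.5 CPM. With the block on replicates 1 and 2, 6 of the mitosis genes were higher, namely ASPM, TOP2A, CDC20, KIF11, TPX2 and MKI67, and 0 were lower, where 0.188% of all genes were higher. That fit was added after the data were seen and leaves 1 residual degree of freedom. Of 38 DNA replication and G1/S genes, 0 were called in any of these fits, 11 were above 0 and the median was -0.11, with pair medians of -0.11, -0.06 and -0.11. MCM3, a subunit of the replicative helicase, was at 66.0, 57.7 and 122 CPM and 51.3, 43.4 and 106 CPM, lower in each pair (log2 fold change -0.32, adjusted p = 0.68, and 0.0587 with the block).

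Adhesion, lineage and antigen presentation lists had medians below 0. Of 23 laminins and integrins, 0 were called and 8 were above 0, with a median of -0.08. With the block 2 were lower (LAMA3 and LAMB3), where 0.112% of all genes were lower. Of 12 ovarian and Mullerian lineage genes, 0 were called and 1 was above 0, with a median of -0.14 and pair medians of -0.10, -0.15 and -0.14. Of 15 class I antigen presentation genes, 0 were called and 3 were above 0, with a median of -0.11. Of 24 HOX genes, classical Polycomb targets, 0 were called, 9 were above 0 and the median was -0.02. The 13 mitochondrially encoded mRNAs were all above 0, with a median of 0.11 and 0 called. The summed level of these mRNAs was 6652 to 16230 CPM with GSK-J5 and 7486 to 17040 CPM with GSK-J4, with replicate 3 highest in each. Fibroblast markers had the highest list median, 0.28 over 8 tested genes, with a median SE of 0.32. Their part in the results above was not tested.

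Stress lists that hold the well-known responses to nutrient and protein stress had medians near 0. The ATF4 and amino acid response list had 0 of 37 called and a median of 0.03, and 36 of the 37 intervals lay within 2-fold. In replicates 1 and 2 alone, 1 of its members was lower (SLC7A5) and 0 were higher, where 0.0666% of all genes were lower. With the block on those replicates, 2 were lower and 0 higher, where 0.303% of all genes were lower. The cytosolic aminoacyl-tRNA synthetases had 0 of 20 called and a median of 0.01, and the endoplasmic reticulum chaperones 0 of 21 and 0.01.

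The compound effect was tested for a difference between the library sets. It differed for 2 genes, or 0.0124% of 16089, with 319 at an unadjusted p under 0.05, and the second set has 1 library per compound, so its spread is taken from replicates 1 and 2. CYP1B1 was at 599, 584 and 392 CPM with GSK-J5 and 222, 203 and 313 CPM with GSK-J4. It was lower with GSK-J4 in every pair, by a smaller amount in replicate 3, and the effect in the second set minus that in the first was 1.15 (adjusted p = 0.0031). MT2A, a metallothionein that binds zinc and other metals, was at 262, 252 and 300 CPM with GSK-J5 and 349, 342 and 736 CPM with GSK-J4. All pairs were higher with GSK-J4, replicate 3 most, and the difference between sets was 0.87 (adjusted p = 0.042).

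**Figure D4:**
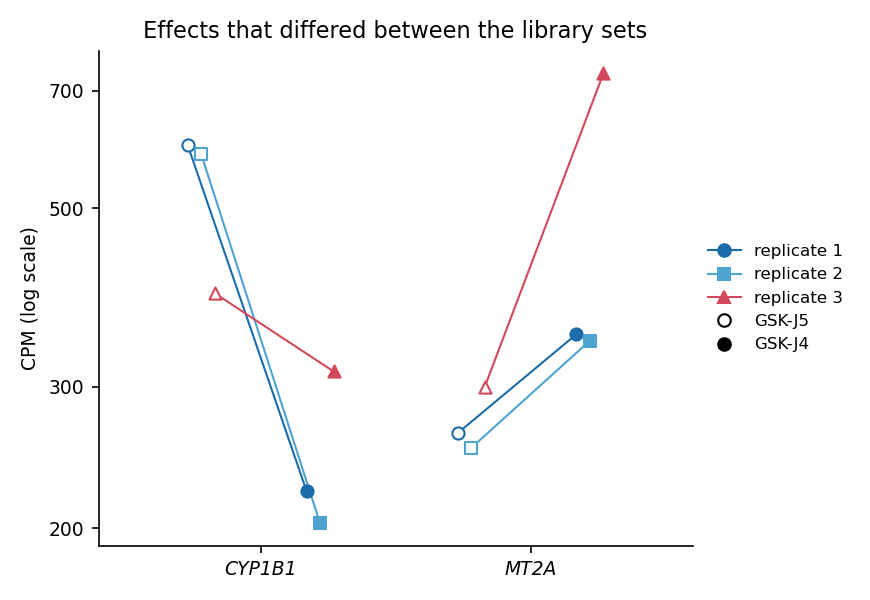
CPM (log scale) of CYP1B1 and MT2A in the 6 SKOV3 libraries, with open symbols for GSK-J5, filled symbols for GSK-J4 and a line joining each replicate number. The lines of replicates 1 and 2 run together, and that of replicate 3 is flatter for CYP1B1 and steeper for MT2A.

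The SKOV3 effect was set against OVCAR-3 and CAOV3 at 72 h in 1 fit of 18 libraries, with a set term within each line and 19274 genes. In that fit the OVCAR-3 effect took 4091 genes up (21.2%) and 3685 down (19.1%), the CAOV3 effect called 0 genes (1598 at an unadjusted p under 0.05), and the SKOV3 effect called 0 in either direction. The SKOV3 interval of SCD ran from 0.05 to 0.94 there, against 0.36 to 0.62 in the fit of 6 libraries, and the cause was not tested. The SKOV3 effect was above the OVCAR-3 effect for 1750 genes (9.08%) and below it for 2601 (13.5%). Against CAOV3 alone 0 genes differed in either direction, with 1030 at an unadjusted p under 0.05. Without replicate 1 or without replicate 2 of all lines, 0 genes differed between SKOV3 and OVCAR-3, and without replicate 3, 4328 were above and 3999 below.

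Set against the mean effect of both other lines, SKOV3 had 0 genes above and 4 below (0.0208%), with 3838 at an unadjusted p under 0.05. STAC, an adaptor of calcium channels, had a difference of -1.93 on the log2 scale (adjusted p = 0.0129). Its SKOV3 levels were 27.4, 29.6 and 49.3 CPM with GSK-J5 and 28.9, 24.1 and 49.7 CPM with GSK-J4, where OVCAR-3 went from 1.46, 1.79 and 0.424 CPM to 20.1, 20.6 and 7.88 CPM. NGEF had a difference of -0.90 (adjusted p = 0.0467), and its own effect was -0.01 in SKOV3, 1.84 in OVCAR-3 and -0.04 in CAOV3. PORCN had a difference of -1.30 (adjusted p = 0.0467), with effects of -0.58 in SKOV3 and 1.33 in OVCAR-3. NGFR, a neurotrophin receptor, had a difference of -4.78 (adjusted p = 0.0129), but its SKOV3 level was at most 0.989 CPM. Against CAOV3 alone none of the 4 differed. Their CAOV3 effects were -0.07 for STAC, -0.04 for NGEF, 0.10 for PORCN and -0.14 for NGFR. In OVCAR-3 the effects of the 4 genes ran from 1.33 to 5.71. With the replicate block none of the 4 passed: the adjusted p was 0.0693 for STAC and NGFR and 0.345 for NGEF and PORCN. All 4 also lost the call without replicate 1 or without replicate 2, and kept it without replicate 3.

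Of the genes called in SKOV3, HMOX1 and ALDH3A1 were also called in OVCAR-3. HMOX1 was higher in OVCAR-3 too, at 1.10 (adjusted p = 0.000166), and stood at -0.01 in CAOV3. Its OVCAR-3 levels were low, at 2.42 to 3.81 CPM with GSK-J5 and 6.56 to 7.1 CPM with GSK-J4. In this edgeR fit of 18 libraries its SKOV3 effect was 0.61 and did not pass (adjusted p = 0.527). ALDH3A1 was at -0.99 in OVCAR-3 (adjusted p = 0.0356), but at levels of only 0.632 to 1.18 CPM with GSK-J5 and 0.263 to 0.785 CPM with GSK-J4, and at -0.08 in CAOV3. SCD was at 0.50 in SKOV3 and -0.43 in OVCAR-3, where it did not pass (adjusted p = 0.125) and went from 740 to 365 and 855 to 504 CPM in replicates 1 and 2 but from 261 to 366 CPM in replicate 3. The SKOV3 effect was above that of OVCAR-3 by 0.93 (95% interval 0.29 to 1.56, adjusted p = 0.039). MT2A was at 0.72 in SKOV3 and 5.78 in OVCAR-3, a difference of -5.05 (adjusted p = 5.48e-05). The ATF4 list median was 0.80 in OVCAR-3 and 0.11 in CAOV3, the tRNA synthetase median 0.90 and 0.05, and the NRF2 median 1.37 and 0.03, beside SKOV3 medians of 0.04, 0.02 and 0.00 in the same fit.

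**Figure D5:**
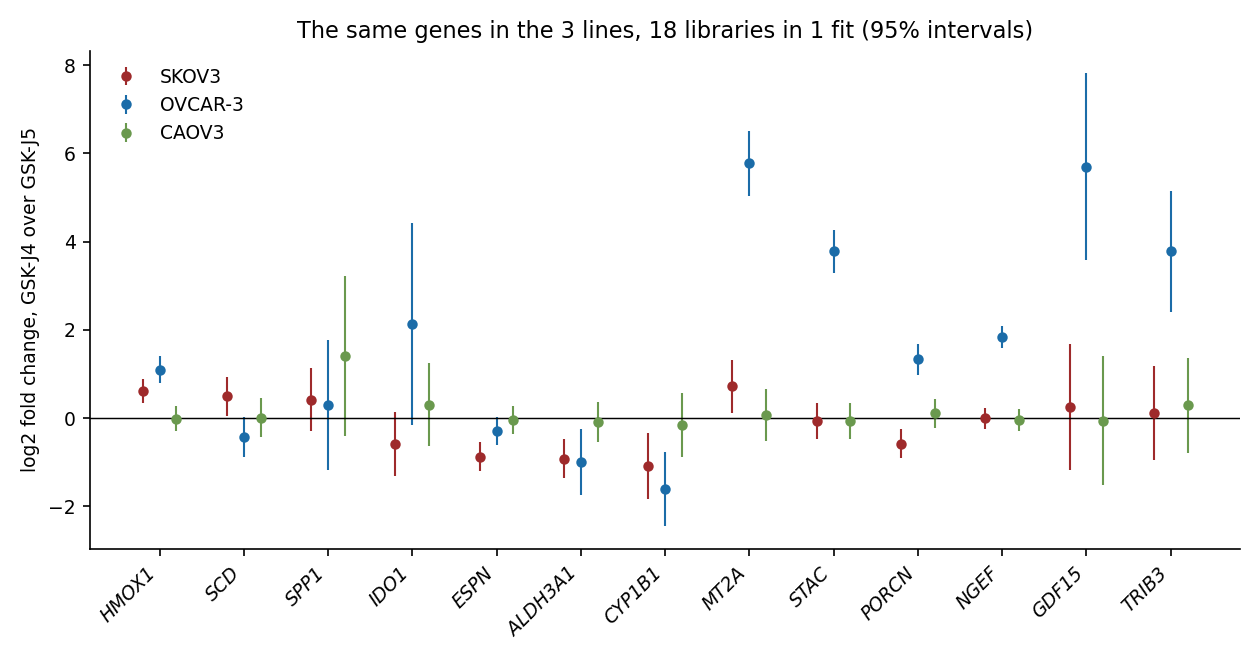
Log2 fold change of GSK-J4 over GSK-J5 in SKOV3, OVCAR-3 and CAOV3 for 6 of the 7 genes called in SKOV3 and 7 others, from the fit of 18 libraries, with bars for 95% intervals. OVCAR-3 lies far above the other lines for MT2A, STAC, GDF15 and TRIB3. SCD lies above 0 in SKOV3 and below 0 in OVCAR-3, where its interval includes 0. IDO1 was at most 0.534 CPM in OVCAR-3 and 1.83 CPM in CAOV3, and SPP1 at most 0.754 and 0.767 CPM. Their points in these lines therefore rest on low levels.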

How the data were processed

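The deposited tables, 1 per cell line, held raw read counts per Ensembl gene; the authors deposited counts with no normalization. Per the submitters' processing notes, reads were handled with STAR and DESeq2 against GRCh38; how reads were counted, on which strand and with which annotation was not given in the sources used here. Genes that overlap, lie antisense or have near-identical copies are therefore uncertain. Of 58825 identifiers, 58472 took their symbol from a gene name table and 345 more from GENCODE 29, with gene positions from GENCODE 29 on GRCh38. Genes were kept by filterByExpr (minimum count 10), scaled by TMM and tested in R 4.3.3 with edgeR 4.0.16 (robust quasi-likelihood), with library set and compound as terms. With 6 libraries 3 residual degrees of freedom remained, moderated across genes. Intervals are 95%. Limma 3.58.1 (voom) and DESeq2 1.42.0 were alternatives. The code was tested on simulated data that held no shift between the library sets, so that test does not cover such a shift.

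Deviations of same-numbered libraries correlated at 0.443, 0.446 and 0.779, over the 0.1 set as the bar for pairing, and the block is given beside the results. Differently numbered libraries of the first set reached 0.382 and 0.345, so pairing within that set is weakly supported. Genes named by rule were KDM6A and KDM6B, called genes by size and direction in all pairs, and called list members; others are said to be chosen after their values were seen, including list members without a call. Some genes that enter the counts are not reported here by name. The 39 gene lists, the comparison and its rules were chosen with earlier results of these data known.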

Additional observations from a re-analysis of the deposited data

Results flagged for a closer look

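The compound effect in SKOV3 differed between the library sets for CYP1B1, by 1.15 on the log2 scale, and for MT2A, by 0.87, both by the interaction term of the edgeR fit; the second set has 1 library per compound.

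The SKOV3 effect lay below the mean effect of the other lines, by a test of the difference, for NGEF (-0.90), STAC (-1.93), NGFR (-4.78) and PORCN (-1.30). None of the 4 passed this test with the replicate block. All 4 lost the call without replicate 1 or without replicate 2, and kept it without replicate 3. Against CAOV3 alone 0 genes differed, and the OVCAR-3 effects of these 4 genes ran from 1.33 to 5.71. Against OVCAR-3 alone the SKOV3 effect lay above for SCD (0.93) and below for MT2A (-5.05), and in all above for 1750 genes and below for 2601. The OVCAR-3 effect on SCD did not itself pass (adjusted p = 0.125), and its replicate 3 was higher with GSK-J4 (261 and 366 CPM). Values of single samples were not screened for outliers, since each group holds 3 libraries.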

How the results depend on the processing

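The 4 higher and 3 lower genes became 10 and 21 without the low-count filter, 0 and 0 without the set term, 0 and 0 against a fold threshold of 1.5, and 0 and 0 with 18 libraries in 1 fit. The lower genes were 15 by DESeq2 and 18 with the replicate block. The block on replicates 1 and 2, added after the data were seen, gave 31 and 50. Leaving out 1 replicate or library gave 2 to 18 higher and 2 to 20 lower genes. The 7 called genes kept their direction in all 126 alternative values and passed in 87, and the cause of the 39 losses was not tested.

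SKOV3 above the mean of both other lines gave 330 genes by DESeq2, 912 without the filter and 0 to 2919 with a replicate left out. Below it, the 4 became 577 by DESeq2, 9 by limma voom, 871 without the filter, 0 with the replicate block and 0 to 2683 with a replicate left out. The set difference gave 13 genes without the filter. Against OVCAR-3 alone, a fit of those 12 libraries gave 507 above and 1194 below, and leaving out a replicate 0 to 4328 and 0 to 3999. Against CAOV3 alone, leaving out a replicate gave 0 to 310 above and 0 to 138 below. Of 273 list medians under alternatives, 33 moved, 12 of them without replicate 3. DESeq2 gave no adjusted p for 9670 genes.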
